A study of Mus musculus with 6 samples.

Results

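The genes described here take up glucose and carry it through glycolysis, turn its end product pyruvate into lactate or acetyl-CoA, divert glucose 6-phosphate into the pentose phosphate pathway, or belong to the oxygen-sensing HIF pathway that controls many of them. They were chosen by name, as 34 gene symbols found in the table of 55536 genes. Aldoa is listed under 2 identifiers, which gives 35 genes, and all 35 were among the 15519 genes with enough counts to be tested. Of these 35 genes only Slc2a3, the gene of a high-affinity glucose transporter, passed the edgeR test (adjusted p under 0.05), and it fell. By the same test 0.979% of all tested genes rose and 0.992% fell. Slc2a3 stood in the cells without HDAC1 at 31.9% of its level in the controls (95% interval 20.3 to 50.1%). This call ended in most fits that left out a single library. The 95% intervals of some other genes, such as Bnip3 (lower) and Pgd (higher), also excluded no change. The messenger RNAs of the abundant glycolytic enzymes, from Ldha to Gapdh, kept to within 1.5-fold of the control level by their 95% intervals.

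The cells were CD4+ T cells of C57BL/6 mice that carry 2D2, a transgenic T cell receptor that recognises MOG, a protein of the myelin sheath, and both groups carried the loxP-flanked Hdac1 allele (Hdac1fl/fl). The HDAC1-cKO donors also carried Cd4-Cre, a Cre recombinase driven by Cd4 regulatory sequence that acts in T cells from their development in the thymus on, and the WT donors were Cre-negative, so that effects of Cre itself and of the lost HDAC1, a histone deacetylase, cannot be told apart. Naive CD45.2+ cells were injected into CD45.1+ mice, which kept their own HDAC1, and 18 hours later these were immunised in the footpad with the MOG peptide in complete Freund's adjuvant (CFA, 1 mg/ml). The draining popliteal nodes were taken 4 days after that, 2 mice were pooled for each of 3 replicates per genotype, and 500 sorted donor cells per library were sequenced after Smart-seq2 amplification. Neither naive donor cells nor cells of unimmunised mice are in the table, so differences already present in naive cells cannot be told apart from those that arose on activation. In such bulk libraries, fewer cells that use a gene and less RNA of it per cell cannot be told apart either.

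An activated CD4+ T cell shifts to rapid glycolysis with release of lactate, and takes up more glucose to do so. Glucose enters through the transporters encoded by Slc2a1 (GLUT1) and Slc2a3 (GLUT3), is trapped by hexokinase, split by the upper enzymes into triose phosphates and oxidised by the lower enzymes to pyruvate with a gain of ATP. The pentose phosphate branch supplies NADPH and ribose for growth. HIF-1, whose regulated subunit is HIF-1 alpha (Hif1a), is stabilised in activated T cells as well as in low oxygen, and binds a core sequence, ACGTG or GCGTG, near many glycolytic genes.

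Hdac1 itself was read first, as a check of the labels. It stood at 17.2, 14.7 and 15.4 CPM (read counts relative to the TMM-scaled total of the library) in HDAC1-cKO replicates 1, 2 and 3 and at 234, 236 and 244 CPM in WT replicates 1, 2 and 3. The libraries held 19956153 to 55900237 counts, and the 3 WT libraries were the deepest. Molecular identifiers were not used, so that intervals cover counted reads, not independent molecules. One library stood apart. In HDAC1-cKO replicate 2, deviations from the mean of all libraries went with the GC content of the genes (Pearson r = 0.580 across 8778 genes, which are not independent replicates), against -0.274 to -0.075 in the other 5. This library also had the lowest share of reads from the mitochondrial genome, 0.922% against 1.34 to 1.67%. T cell markers were abundant in every library, at a summed 25212 to 34192 CPM in HDAC1-cKO and 29512 to 35400 CPM in WT, with Cd4 at 138 to 239 CPM and 145 to 182 CPM. Of the 11 T cell markers 2 fell, Cd3e and Cd2, where 0.992% of all tested genes fell. Fold changes were negative for 10 of the 11, with a median of -0.31 on the log2 scale, and positive only for Cd4. In 5 of them every HDAC1-cKO library lay below every WT library, against 11.8% of all tested genes. Cd3e stood at 37.3% of its WT level. Of other cell types, CD8 T and NK cell markers summed to 66.8 to 74.9 CPM in HDAC1-cKO and 48.9 to 62.9 CPM in WT, nearly all of it Cd8b1, and B cell markers to 33.2 to 66.9 CPM and 17.1 to 43.8 CPM. Lymph node stroma markers summed to 58.2 to 81.5 CPM and 64.2 to 99.4 CPM, with 6 of the 7 under 1 CPM in every library. Erythroid markers summed to 0.828 to 1.63 CPM and 0.820 to 2.47 CPM. Their part in the results was not tested. Proliferation genes summed to 2495 to 3149 CPM and 2812 to 2896 CPM, ranges that overlap.

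Most of these genes have HIF core sequences just upstream of their start, which is why 4 of their promoters are shown. In the RefSeq promoter table (GRCm38.p6), 33 of the 34 symbols have an entry, and Slc2a3 is the other one. The 250 bases before each listed start were searched for ACGTG and GCGTG on both strands, so that CACGT and CACGC count too, and CACGTG counts once on each strand. Of 48 such windows of these genes 81.25% hold at least 1 match, against 38.6% of all 32851 windows in the table and 55.6% of the 12053 windows of tested genes. Some windows of the same gene overlap and hold the same matches, as for Eno1 and Aldoa, so windows are not independent. By gene, 31 of the 33 symbols have a match in a window, and no such count was made for all genes. In the sequences below, capitals mark the matches. They are those of Slc2a1 (chr4:119108495-119108744, plus strand), the second glucose transporter, and Ldha (chr7:46845554-46845803, plus strand), the most abundant of these messenger RNAs. The others are the HIF targets Bnip3 (chr7:138909507-138909756, minus strand) and Egln3 (chr12:54203875-54204124, minus strand). Bnip3 and Egln3 were lower in every HDAC1-cKO library than in any WT library, as were 11.8% of all tested genes.
Slc2a1: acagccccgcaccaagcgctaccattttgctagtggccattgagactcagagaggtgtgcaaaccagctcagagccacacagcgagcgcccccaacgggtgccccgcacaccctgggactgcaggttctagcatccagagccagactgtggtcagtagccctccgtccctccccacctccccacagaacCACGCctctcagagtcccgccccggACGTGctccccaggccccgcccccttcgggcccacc
Ldha: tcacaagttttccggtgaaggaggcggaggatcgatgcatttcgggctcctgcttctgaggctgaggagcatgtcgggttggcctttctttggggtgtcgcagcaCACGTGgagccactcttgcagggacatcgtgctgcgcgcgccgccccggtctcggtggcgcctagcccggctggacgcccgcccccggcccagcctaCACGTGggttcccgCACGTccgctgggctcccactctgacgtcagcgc
Bnip3: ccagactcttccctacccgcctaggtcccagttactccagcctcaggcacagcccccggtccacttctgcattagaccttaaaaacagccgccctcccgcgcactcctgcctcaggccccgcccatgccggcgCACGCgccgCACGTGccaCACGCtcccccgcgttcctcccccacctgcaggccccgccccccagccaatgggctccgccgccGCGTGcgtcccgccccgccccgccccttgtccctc
Egln3: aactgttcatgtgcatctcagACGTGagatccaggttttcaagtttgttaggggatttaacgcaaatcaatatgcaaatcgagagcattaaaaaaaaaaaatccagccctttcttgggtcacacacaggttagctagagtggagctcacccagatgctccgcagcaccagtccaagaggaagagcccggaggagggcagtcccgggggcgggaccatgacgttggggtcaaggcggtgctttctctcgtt
A match describes these letters only and shows no binding. The printed windows of Ldha and Bnip3 hold 5 matches each, the window of a second Ldha start holds 1, that of Slc2a1 holds 2 and that of Egln3 holds 1. None of these 4 genes passed the edgeR test, and the groups of Ldha overlapped. Whether matches go with expression was not tested.

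Of the 2 uptake genes 1 fell, where 0.992% of all tested genes fell. Slc2a3 (ENSMUSG00000003153, chromosome 6, 122727809 to 122801640, minus strand, GRCm38) stood at 15.3, 7.44 and 11.1 CPM in HDAC1-cKO replicates 1, 2 and 3 and at 43.5, 34.1 and 28.4 CPM in WT replicates 1, 2 and 3. The highest HDAC1-cKO library thus lay well under the lowest WT library. Its means were 11.3 ± 3.95 and 35.3 ± 7.64 CPM (SD, n = 3 libraries per group), and it fell by 1.65 ± 0.28 log2 units (SE, with an adjusted p of 0.0334 by edgeR). The call held without HDAC1-cKO replicate 2 (log2 fold change -1.42, edgeR adjusted p = 0.0280) and ended without any 1 of the other 5 libraries, where the log2 fold change ran from -1.95 to -1.48 (edgeR adjusted p = 0.0628 to 0.136). Only 1.26% of its 50-base stretches occur in another gene. GLUT3 has a high affinity for glucose, and its gene is also expressed by myeloid cells. Markers of myeloid and dendritic cells were lower in HDAC1-cKO as well, with a summed 5.94 to 7.50 CPM against 15.1 to 33.7 CPM in WT, most of it Lyz2 and Xcr1. Of the 10 markers 5, namely Csf1r, Cd14, Flt3, S100a8 and Clec9a, were at 0 in all libraries. Their part in the fall of Slc2a3 was not tested.

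Slc2a1, which encodes the main transporter of activated T cells, did not pass the test. It stood at 50.1, 42.0 and 49.1 CPM in HDAC1-cKO and at 69.5, 51.4 and 52.4 CPM in WT. The groups do not overlap by a narrow margin, and WT replicate 1 stood above the other libraries. Its log2 fold change was -0.30 ± 0.16 (SE, with an adjusted p of 0.399 by edgeR), and it was -0.15 without WT replicate 1. Compared per length, in the deposited FPKM (which divide counts by the length of the gene), Slc2a1 was the more abundant of the pair in every library. The share of Slc2a3 in their summed FPKM was 20.1, 12.7 and 15.7% in HDAC1-cKO and 34.04, 35.3 and 30.9% in WT. These means of 16.2 ± 3.73% and 33.4 ± 2.29% (SD, n = 3) differed by -17.2 percentage points (exact permutation test, two-sided, p = 0.1, the smallest that 3 against 3 libraries allow; 0.6 when adjusted over 12 shares). Summed over both transporters, FPKM were 14.5 to 19.0 in HDAC1-cKO and 23.1 to 31.8 in WT. Slc2a1 was at 81.4% of its WT level (95% interval 63.3 to 105%), beside 31.9% for Slc2a3.

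**Figure D1:**
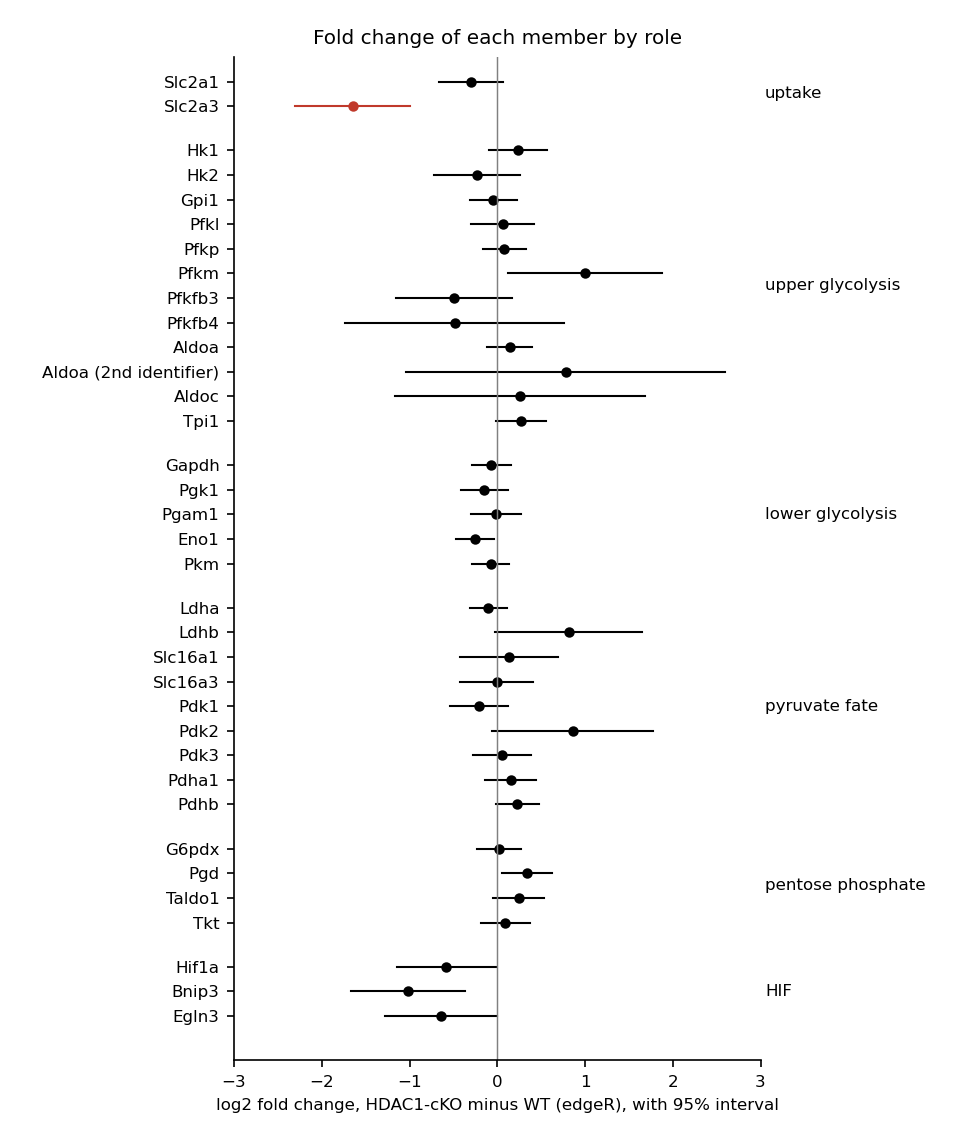
Log2 fold change (HDAC1-cKO minus WT, edgeR) of each of the 35 genes on the x axis, grouped by role, with points for the estimate and lines for its 95% interval. Slc2a3, drawn in red, is the 1 gene past the adjusted p threshold, and all 5 intervals of the lower glycolysis genes lie within 1.5-fold of no change.

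Across all 35 genes, 0 rose and 1 fell, where 0.979% of all tested genes rose and 0.992% fell by the same edgeR test. Fold changes were positive for 18 genes and negative for 17, and their median of 0.02 on the log2 scale lay beside -0.00 over all genes. An unadjusted p under 0.05 was found for 7 of the 35 and for 2640 of all 15519 tested genes. In 2 genes every HDAC1-cKO library lay above every WT library and in 8 every one lay below, against 12.7% and 11.8% of all tested genes. Counted as a share of all reads, the 35 genes took 1.44 to 1.55% in HDAC1-cKO and 1.44 to 1.61% in WT. The precision differed between genes. For 24 of the 35 the 95% interval of the fold change lay within 2-fold of no change and for 20 within 1.5-fold. Of all tested genes 57.2% and 26.4% did so. Such a count depends on the size of the fold change as well as on the width of the interval.

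Upper glycolysis covers the steps from hexokinase to triose phosphate isomerase. Of its 12 genes 0 were called, where 0.979% of all tested genes were called higher and 0.992% lower. The median log2 fold change was 0.11, with 8 positive and 4 negative, and summed FPKM of 1694 to 1921 in HDAC1-cKO overlapped 1554 to 1807 in WT. Aldoa (aldolase A) was the most abundant of them, at 1025 FPKM in HDAC1-cKO and 931 FPKM in WT on average, and 110% of WT (92.6 to 132%). The second Aldoa identifier stayed at or below 0.5 CPM in every library. Tpi1, triose phosphate isomerase, stood at 916, 903 and 1018 CPM in HDAC1-cKO and at 908, 727 and 716 CPM in WT. WT replicate 1 lay among the HDAC1-cKO libraries, and the log2 fold change was 0.27 ± 0.12 (SE, with an adjusted p of 0.312 by edgeR); limma-voom with sample weights called it higher (adjusted p = 0.0382). Pfkm, the muscle form of phosphofructokinase and the least abundant of the 3 forms here, stood at 4.69, 7.65 and 8.62 CPM in HDAC1-cKO and at 3.73, 1.94 and 4.82 CPM in WT. The groups overlapped between HDAC1-cKO replicate 1 and WT replicate 3, and the log2 fold change was 1.00 ± 0.38 (SE, with an adjusted p of 0.231 by edgeR).

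The other phosphofructokinase forms were nearly level. Pfkp, the platelet form, supplied 64.5 to 72.2% of the family's FPKM in HDAC1-cKO and 67.8 to 71.0% in WT, and Pfkl, the liver form, 26.0 to 33.9% and 27.9 to 31.5%. Hexokinase was mostly Hk1, with Hk2 at 8.86 to 16.5% of the pair's FPKM in HDAC1-cKO and 12.9 to 18.4% in WT, and neither passed the test (log2 fold change 0.24 for Hk1 and -0.23 for Hk2, edgeR adjusted p = 0.462 and 0.655). Pfkfb3, whose product makes fructose 2,6-bisphosphate and so activates phosphofructokinase, stood at 2.42, 1.66 and 2.55 CPM in HDAC1-cKO and at 3.32, 2.98 and 3.03 CPM in WT. Its groups do not overlap, but at these low levels the log2 fold change of -0.50 ± 0.29 (SE, with an adjusted p of 0.439 by edgeR) did not pass. The isozymes Pfkfb4 and Aldoc were rare, at no more than 2.32 and 8.72 CPM in any library, and their intervals were among the widest. Gpi1, which converts glucose 6-phosphate to fructose 6-phosphate, was at 97.0% of WT (80.7 to 117%).

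Lower glycolysis runs from glyceraldehyde 3-phosphate to pyruvate. Likewise, 0 of its 5 genes passed the threshold, where 0.979% of all tested genes rose and 0.992% fell. All 5 fold changes were negative, with a median of -0.07, and the summed FPKM of 2545 to 2678 in HDAC1-cKO lay below the 2750 to 3062 in WT. Eno1, enolase (ENSMUSG00000063524, chromosome 4, 150236721 to 150248879, plus strand), had the largest difference in FPKM of the 5, with means of 943 and 1128. It stood at 2470, 2327 and 2509 CPM in HDAC1-cKO and at 3103, 2802 and 2804 CPM in WT. No libraries overlap, and Eno1 was at 83.9% of WT (72.4 to 97.2%), a log2 fold change of -0.25 ± 0.09 (SE, with an adjusted p of 0.207 by edgeR). Pgk1, the first ATP-forming enzyme of the pathway, stood at 441, 393 and 472 CPM in HDAC1-cKO and at 525, 479 and 440 CPM in WT. WT replicate 3 lay within the HDAC1-cKO range, and the log2 fold change was -0.15 ± 0.11 (SE, with an adjusted p of 0.585 by edgeR). Gapdh was at 95.5% (81.8 to 112%) of WT, Pkm, pyruvate kinase, at 95.01% (82.2 to 110%) and Pgam1 at 98.9% (81.1 to 121%).

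Several of these genes have copies elsewhere in the genome, and how the authors' counting placed reads that fit a gene and its copy is not given in the sources used here. Of the 50-base stretches of Pgk1, 53.9% occur in another gene, of Pgam1 36.2%, of Eno1 26.0%, of Pkm 25.8% and of Gapdh 25.1%. The Eno1 copies Eno1b and Gm4735 held 237 and 695 CPM in HDAC1-cKO replicate 1 and 294 and 858 CPM in WT replicate 1, and their log2 fold changes of -0.23 and -0.23 lay close to that of Eno1. Summed with these 2 copies, Eno1 stood at 3402, 3223 and 3431 CPM in HDAC1-cKO and at 4254, 3837 and 3844 CPM in WT, with a log2 fold change of -0.25 (edgeR adjusted p = 0.213). The summing, for each gene with every copy that holds at least 5% of its stretches, was chosen after seeing the data. It left Pgk1 at -0.14, Gapdh at -0.04 and Pkm at -0.08 on the log2 scale, with none of the lower glycolysis genes past the threshold.

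**Figure D2:**
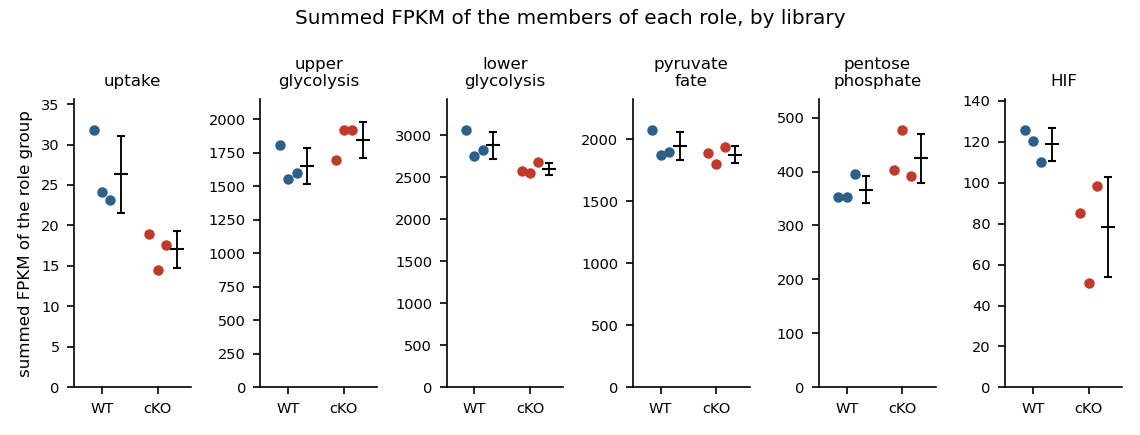
Summed FPKM of the members of each role on the y axis, with 1 point per library, WT in blue and HDAC1-cKO (cKO) in red, and black bars for the mean and SD of 3 libraries. The WT and HDAC1-cKO points are apart for uptake, lower glycolysis and HIF, and overlap for the upper glycolysis, pyruvate fate and, by 1 library, the pentose phosphate genes. Hif1a averaged 71.4 of the 78.2 FPKM of the HIF sum in HDAC1-cKO and 107 of 119 in WT. Of the lower glycolysis sum, Eno1 averaged 943 of 2597 FPKM in HDAC1-cKO and 1128 of 2878 in WT. The sums were not tested.

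Pyruvate fate genes turn pyruvate to lactate, export it or send it to the mitochondria. Of these 9 genes 0 passed the threshold, where 0.979% of all tested genes rose and 0.992% fell. Ldha, the subunit of lactate dehydrogenase that favours lactate formation, was the most abundant of all these genes, at 1527 FPKM in HDAC1-cKO and 1642 FPKM in WT on average and 29th of all genes by FPKM. It was at 93.3% of WT (80.4 to 108%). Ldhb, the other subunit, stood at 15.4, 38.2 and 16.8 CPM in HDAC1-cKO and at 11.1, 17.1 and 11.9 CPM in WT. The excess came from HDAC1-cKO replicate 2, the library with the GC trend, and WT replicate 2 lay above the other 2 HDAC1-cKO libraries. Its log2 fold change was 0.82 ± 0.36 (SE, with an adjusted p of 0.307 by edgeR), and 0.26 without that library. Ldhb was 0.767 to 1.91% of the pair's FPKM in HDAC1-cKO and 0.475 to 0.816% in WT. The lactate and pyruvate carriers Slc16a1 (MCT1) and Slc16a3 (MCT4) had log2 fold changes of 0.13 and -0.01, and the sign of the second turned under several settings.

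Pyruvate dehydrogenase carries pyruvate into the citric acid cycle, and its kinases switch it off. Pdhb, its E1 beta subunit (chromosome 14, 8165996 to 8173025, minus strand), stood at 326, 272 and 280 CPM in HDAC1-cKO and at 253, 243 and 255 CPM in WT. All 3 HDAC1-cKO libraries lay above WT, with a log2 fold change of 0.23 ± 0.11 (SE, with an adjusted p of 0.334 by edgeR). Pdha1, the E1 alpha subunit, was at 111% of WT (90.9 to 136%). Its exons overlap those of Map3k15 on the other strand, and the kit did not mark strand. Map3k15 stood at no more than 0.375 CPM in any library. Pdk1, the kinase induced by HIF-1, stood at 18.8, 20.9 and 23.2 CPM in HDAC1-cKO and at 23.4, 24.1 and 25.1 CPM in WT. The gap between the groups was small, and the log2 fold change was -0.21 ± 0.14 (SE, with an adjusted p of 0.534 by edgeR). Pdk2 stood at 4.23, 6.42 and 3.48 CPM in HDAC1-cKO and at 1.70, 2.11 and 4.03 CPM in WT. The groups overlapped at WT replicate 3, and the log2 fold change was 0.86 ± 0.40 (SE, with an adjusted p of 0.323 by edgeR), or 0.56 without HDAC1-cKO replicate 2. Pdk3 supplied most of the kinase FPKM, at 88.8 to 93.0% in HDAC1-cKO and 90.0 to 93.0% in WT.

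**Figure D3:**
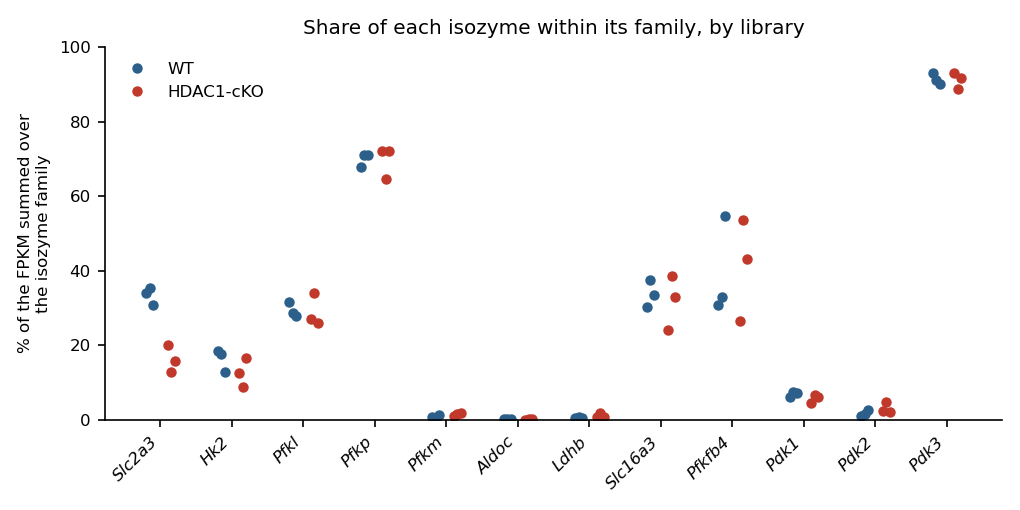
Share of each isozyme in the summed FPKM of its family, in percent on the y axis, with 1 point per library, WT in blue and HDAC1-cKO in red. Slc2a3 shows groups apart, at 12.7 to 20.1% against 30.9 to 35.3%, and the other 11 shares overlap.

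Pentose phosphate genes had 0 of 4 past the threshold, where 0.979% of all tested genes rose and 0.992% fell. All 4 had positive fold changes, with a median of 0.17. Pgd, 6-phosphogluconate dehydrogenase, which makes NADPH (chromosome 4, 149149991 to 149166771, minus strand), stood at 85.7, 103 and 83.6 CPM in HDAC1-cKO and at 75.1, 69.0 and 71.0 CPM in WT. All HDAC1-cKO libraries lay above WT, and Pgd was at 127% of WT (104 to 154%), a log2 fold change of 0.34 ± 0.12 (SE, with an adjusted p of 0.204 by edgeR). Taldo1, transaldolase of the non-oxidative branch and the most abundant of the 4 per length, stood at 396, 481 and 384 CPM in HDAC1-cKO and at 340, 331 and 394 CPM in WT. WT replicate 3 lay within the HDAC1-cKO range, and the log2 fold change was 0.25 ± 0.13 (SE, with an adjusted p of 0.382 by edgeR). G6pdx, the first and rate-setting enzyme, was at 101% of WT (85.2 to 120%) and Tkt, transketolase, at 107% (87.8 to 130%). Of the exon bases of G6pdx 13.6% are overlapped by Ikbkg on the other strand, which stood at 22.4 to 33.0 CPM. Its part in the G6pdx counts was not tested. In HDAC1-cKO replicate 2, Pgd, Taldo1 and Tkt stood 0.29, 0.30 and 0.29 above the mean of the other 2 HDAC1-cKO libraries on the log2 scale. Without that library Tkt was at -0.02 and Pgd at 0.23 on the log2 scale.

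The HIF regulator Hif1a and the targets Egln3 and Bnip3 were lower in every HDAC1-cKO library than in any WT library, as were 11.8% of all tested genes. None of the 3 passed the threshold, where 0.979% of all tested genes rose and 0.992% fell. Other genes of the HIF pathway, given below, went both ways. Hif1a (chromosome 12, 73901375 to 73947530, plus strand) stood at 430, 240 and 513 CPM in HDAC1-cKO and at 632, 589 and 548 CPM in WT. HDAC1-cKO replicate 2 was by far the lowest and replicate 3 nearly reached WT, and the log2 fold change was -0.58 ± 0.25 (SE, with an adjusted p of 0.280 by edgeR). Without HDAC1-cKO replicate 2 it was -0.33 (edgeR adjusted p = 0.128). HIF-1 alpha is controlled mainly through the stability of the protein, which was not measured. Egln3, a prolyl hydroxylase that marks HIF-1 alpha for degradation and is itself a HIF target (chromosome 12, 54178981 to 54203860, minus strand), stood at 15.3, 14.7 and 7.20 CPM in HDAC1-cKO and at 18.7, 21.4 and 18.3 CPM in WT. The lowest value was that of HDAC1-cKO replicate 3, and the log2 fold change was -0.65 ± 0.28 (SE, with an adjusted p of 0.290 by edgeR), or -0.38 without that library.

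Bnip3, a mitophagy receptor of the outer mitochondrial membrane (chromosome 7, 138890836 to 138909519, minus strand), stood at 3.13, 4.20 and 5.19 CPM in HDAC1-cKO and at 8.96, 10.03 and 6.30 CPM in WT. Its groups do not overlap, and it was at 49.3% of WT (31.5 to 77.3%), a log2 fold change of -1.02 ± 0.28 (SE, with an adjusted p of 0.112 by edgeR). DESeq2 called it lower (adjusted p = 0.0158). Of its 50-base stretches 47.2% occur in other genes, 33.9% in the long non-coding RNA AC160336.1. That RNA stood at 6.29, 6.18 and 7.50 CPM in HDAC1-cKO and at 11.9, 13.4 and 12.8 CPM in WT, and it fell by 0.94 ± 0.19 log2 units (SE, with an adjusted p of 0.0483 by edgeR). Its FPKM of 0.0652 to 0.0795 in HDAC1-cKO and 0.125 to 0.143 in WT make AC160336.1 far longer than Bnip3. Most of the length of AC160336.1 thus lies outside the shared stretches, but the counts do not show where its reads fall. Summed with the 3 genes counted as its copies, AC160336.1 among them, Bnip3 stood at 9.48, 10.4 and 13.0 CPM in HDAC1-cKO and at 21.2, 23.7 and 19.3 CPM in WT. The sum was called lower (log2 fold change -0.97, edgeR adjusted p = 0.0415). Bnip3 supplied 32.6 to 42.3% of this sum, so its call is not one of Bnip3 alone. How the reads divide between Bnip3 and AC160336.1 cannot be told from the counts.

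**Figure D4:**
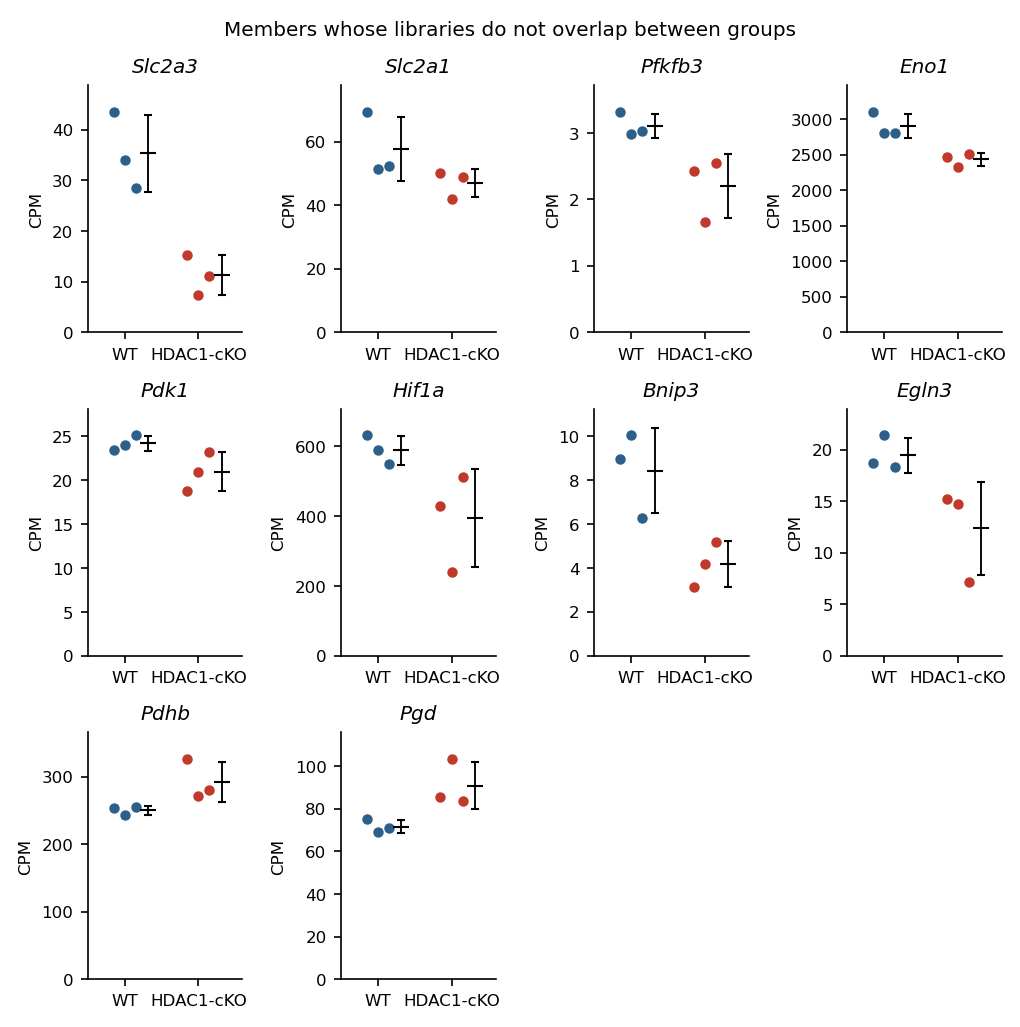
Scaled counts (CPM, y axis from 0) of the 10 genes whose libraries do not overlap between groups, with 1 point per library, WT in blue and HDAC1-cKO in red, and black bars for the mean and SD of 3 libraries. Pdhb and Pgd stand higher in HDAC1-cKO and the other 8 lower, with Slc2a3 at 7.44 to 15.3 against 28.4 to 43.5 CPM.

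Other genes of the same pathways were read from lists by function. Of 25 further glycolysis and hexose entry genes 15 were tested, and 1 rose and 0 fell, where 0.979% of all tested genes rose and 0.992% fell. Eno3, the muscle form of enolase, stood at 15.6, 12.1 and 16.0 CPM in HDAC1-cKO and at 5.87, 6.60 and 5.87 CPM in WT. All HDAC1-cKO libraries lay well above WT, and Eno3 rose by 1.25 ± 0.19 log2 units (SE, with an adjusted p of 0.0275 by edgeR). Set beside Eno1, it is the rare form of the enzyme. DESeq2 and limma-voom with sample weights also called Adpgk, a further gene of this list, higher. Of 16 tested pyruvate and lactate genes 0 passed in either direction. The lowest p were those of Emb, a chaperone of lactate carriers, with a log2 fold change of -0.32 ± 0.14, and of Pdhx, a subunit of pyruvate dehydrogenase, with 0.33 ± 0.15 (SE, with adjusted p of 0.304 and 0.321 by edgeR). Of 9 tested pentose phosphate genes 0 passed, with H6pd, which makes NADPH in the endoplasmic reticulum, at 0.97 ± 0.27 and Rbks, ribokinase, at 0.33 ± 0.15 log2 units (SE, with adjusted p of 0.115 and 0.324 by edgeR). DESeq2 and limma-voom with sample weights called H6pd higher (adjusted p = 0.0161 and 0.0458).

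Among 22 further tested genes of the HIF pathway 2 fell and 0 rose, where 0.992% of all tested genes fell and 0.979% rose. Bhlhe40, a transcriptional repressor induced by HIF-1 and by T cell receptor signals, stood at 246, 201 and 296 CPM in HDAC1-cKO and at 486, 424 and 469 CPM in WT. It fell by 0.89 ± 0.15 log2 units (SE, with an adjusted p of 0.0323 by edgeR), with no overlap. Ero1l, an oxidase that forms disulfide bonds in the endoplasmic reticulum, stood at 65.4, 41.4 and 67.8 CPM in HDAC1-cKO and at 134, 123 and 111 CPM in WT. It fell by 1.08 ± 0.20 log2 units (SE, with an adjusted p of 0.0370 by edgeR). The list as a whole had 9 positive and 13 negative fold changes and a median of -0.14. DESeq2 also called Ankrd37 lower. The calls of Eno3, Bhlhe40 and Ero1l held when HDAC1-cKO replicate 2 was left out (edgeR adjusted p = 0.0154, 0.0216 and 0.0135) and ended without any 1 of the other 5 libraries (edgeR adjusted p up to 0.122, 0.130 and 0.145).

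Of 5 glucose-sensing genes 0 passed, where 0.979% of all tested genes rose and 0.992% fell. Txnip, which restrains glucose uptake and is induced by glucose, stood at 17.7, 26.8 and 23.5 CPM in HDAC1-cKO and at 32.3, 45.9 and 54.0 CPM in WT. All HDAC1-cKO libraries lay below WT, and the log2 fold change was -0.96 ± 0.23 (SE, with an adjusted p of 0.0793 by edgeR). DESeq2 and limma-voom with sample weights called Txnip lower (adjusted p = 0.00222 and 0.0137), as did edgeR without a filter on low counts (adjusted p = 0.0465). Its relative Arrdc4 was close to undetected, at 0.337, 0.348 and 0.637 CPM in HDAC1-cKO and at 0, 0 and 0.211 CPM in WT. All HDAC1-cKO libraries lay above WT, the opposite direction to Txnip, and Arrdc4 did not pass the test (edgeR adjusted p = 0.356).

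**Figure D5:**
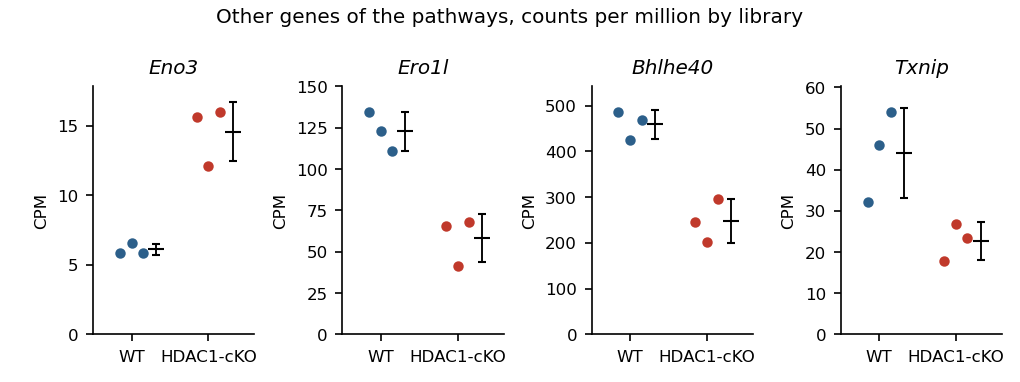
Scaled counts (CPM, y axis from 0) of Eno3, Ero1l, Bhlhe40 and Txnip, with 1 point per library, WT in blue and HDAC1-cKO in red, and black bars for the mean and SD of 3 libraries. Eno3 stands higher in HDAC1-cKO, at 12.1 to 16.0 against 5.87 to 6.60 CPM, and the other 3 stand lower.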

How the data were processed

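Polyadenylated RNA of sorted donor T cells was amplified by Smart-seq2, made into libraries with a kit that does not mark strand, and sequenced as single 50-base reads, per the labels' protocols. The deposited tables hold raw counts of reads for each gene and FPKM values made by the authors for the same 6 libraries, and 0 columns were left without a sample. Per the submitters' processing notes they used STAR 2.5.2b, Picard 2.19.2, R 3.6.1 and DESeq2 1.24.0. Not given in the sources used here are the read counter, its strand setting and its handling of reads with several matches.

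Counts were filtered with filterByExpr, scaled by TMM and tested with edgeR 4.0.16 (R 4.3.3) by the robust quasi-likelihood F test, two-sided, with genotype as the term; p values were adjusted over all 15519 genes (Benjamini-Hochberg), and under 0.05 counted as a call. SE and 95% intervals come from the fold change, its F value and its degrees of freedom. Replicates are separate pools of mice per the series' text, so p values reflect the spread between pools. FPKM served for levels between genes and isozyme shares (exact permutation tests). Coordinates, GC content and shared 50-base stretches come from GENCODE M21 on GRCm38. The test was tried on simulated counts.

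Members and lists were chosen with earlier results of these data known. All 6 values are printed for genes that were called, had the 2 lowest p of their role or had groups that do not overlap; other lists name called genes or, with none, the 2 lowest p. Alternatives were RLE and upper quartile scaling, no filter, at least 10 CPM in 3 libraries, DESeq2 1.42.0, limma-voom with sample weights (limma 3.58.1), limma on log2(FPKM + 1), a replicate block, GC offsets alone and with that block, each library left out, and counts summed with copies, the last chosen after seeing the data.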

Additional observations from a re-analysis of the deposited data

How the results depend on the processing

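Slc2a3 was called lower under all 10 other settings fixed at the start that keep the 6 libraries, from an adjusted p of 9.10e-07 with DESeq2 to 0.0441 with the replicate block, and with counts summed with copies (0.0332). Members called lower numbered 2 with DESeq2, Bnip3 being the other one, and 0 to 1 when any 1 library was left out. They numbered 2 with counts summed with copies. There the second call is that of Bnip3 together with AC160336.1 and 2 other genes counted as copies. Members called higher numbered 1 with limma-voom with sample weights (Tpi1). The median over the members ran from -0.018 to 0.101 when 1 library was left out, the latter without WT replicate 1. Same-numbered libraries did not deviate together (r = 0.190, 0.008 and -0.123 across 8781 genes), so the numbers were not taken to pair them. With the replicate block 34 genes in all were called higher and 31 lower, and Eno3, Ero1l and Bhlhe40 were not called (edgeR adjusted p = 0.0758, 0.0689 and 0.0568). With GC offsets and the replicate block Ero1l and Bhlhe40 were called (0.0295 and 0.0294) and Eno3 was not (0.0724). Of all genes 698 were called higher and 665 lower with DESeq2, 770 and 819 with limma-voom, 250 and 256 with GC offsets, and 243 lower with no filter on low counts. When 1 library was left out, 15 to 258 were called higher and 10 to 368 lower.

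Genes near 0 changed sign. Pfkl was at -0.033 on the log2 scale with GC offsets and -0.017 with GC offsets and the replicate block, Aldoc at -0.109 with limma-voom, Pgam1 at 0.018 with upper quartile scaling, 0.069 with limma-voom and 0.0028 with counts summed with copies, and Slc16a3 at 0.029, 0.0085 and 0.088 with upper quartile scaling, the 10 CPM filter and limma-voom. G6pdx was at -0.0035 with no filter, -0.0081 with limma-voom, -0.037 with GC offsets and -0.034 with GC offsets and the replicate block. When 1 library was left out, log2 fold changes ran from -0.129 to 0.019 for Gpi1, -0.070 to 0.200 for Pfkl, -0.724 to 0.084 for Pfkfb4, -0.372 to 0.861 for Aldoc, -0.087 to 0.101 for Pgam1, -0.0065 to 0.336 for Slc16a1, -0.186 to 0.119 for Slc16a3, -0.045 to 0.158 for Pdk3, -0.062 to 0.062 for G6pdx and -0.018 to 0.151 for Tkt. Differences in share, in percentage points, ran from -2.81 to 1.16 for Pfkl, -1.70 to 2.192 for Pfkp, -0.045 to 0.063 for Aldoc, -5.27 to 1.97 for Slc16a3, -4.69 to 9.12 for Pfkfb4 and -1.13 to 0.984 for Pdk3, whose share of counts differed by 0.978. The cause of these changes was not tested. All 3 WT libraries are deeper than HDAC1-cKO replicates 1, 2 and 3, and genes near 1 CPM such as Pfkfb4 have intervals wider than 2-fold.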
